A study of Mus musculus with 18 samples.

Results

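miR-22 is a single-copy microRNA whose hairpin gives a 3′ arm, miR-22-3p, and a 5′ arm, miR-22-5p. Both arms were taken from the deposited table by their mouse names, mmu-miR-22-3p and mmu-miR-22-5p, which picked 2 of 1184 named entries, and both were followed through 18 small RNA libraries of mouse kidney. The pair was chosen by measured values as well: an earlier analysis of the same table had placed miR-22-3p among the smallest p-values of treated against DN. That contrast is therefore given as a description, with no test. Each of the other 2 contrasts shares a group of libraries with it, so their tests are not independent of this choice.

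Control mice were C57BL/6J and received 0.9% saline. Mice of the diabetic nephropathy group (DN) were of strain C57BL/KsJ and received saline as well. The treated group was DN mice of the same C57BL/KsJ strain that received 10 mg/kg/day of germacrone, a sesquiterpene from plants. No saline is given for the treated group, so germacrone and any difference in vehicle cannot be told apart in treated against DN. Each group had 6 libraries, and the labels used here name no genotype, age or length of treatment. Because the control strain was another one, effects of disease and of strain cannot be told apart against control. The labels do not tie each library to an animal of its own, so every p-value rests on sample-to-sample spread that may be technical.

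A microRNA is cut from a hairpin by Drosha and Dicer, and one of the arms is mostly kept in an Argonaute protein, where its seed, bases 2 to 8, pairs with target mRNAs. miR-22-3p is the arm usually kept. It is abundant in heart and skeletal muscle, where it is linked to hypertrophy. In rat diabetic kidney, miR-22 was reported to restrain autophagy in tubular cells.

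The mature arms are shown with the seed in capitals, because the seed decides which mRNAs an arm can pair with. The hairpin is shown with both arms in capitals. Sequences are those of RefSeq on GRCm38.p6, in which both arms were matched by name.
miR-22-3p: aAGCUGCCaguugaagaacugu
miR-22-5p: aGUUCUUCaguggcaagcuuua
Mir22 hairpin: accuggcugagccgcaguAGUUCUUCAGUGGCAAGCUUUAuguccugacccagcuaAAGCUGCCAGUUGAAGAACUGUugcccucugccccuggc

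The hairpin lies at chr11:75463716-75463810 on the plus strand and fills 95 bases inside exon 2 of the non-coding host gene Mir22hg (GENCODE vM21, transcript Mir22hg-202). miR-22-5p is at chr11:75463734-75463755 and miR-22-3p at chr11:75463772-75463793, and each arm is 22 bases long. Of the 1679 mature mouse names in that reference, 0 others carry the seed of miR-22-3p and 0 others that of miR-22-5p, so neither arm belongs to a seed family there. In the fold of lowest energy from RNAfold, −41.9 kcal/mol, 19 base pairs join the arms and all 7 seed bases of miR-22-3p are paired with miR-22-5p.

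Total counts were 3645173 to 7239343 per library. Kidney epithelial miRNAs, the check of the tissue label, were all measured (8 of 8) and summed to 51740 to 219900 CPM (counts scaled by TMM library size) per library. DN 2 stood apart: its median correlation of log2 CPM with its own group was 0.896, against 0.926 in DN 3, 0.946 in control 2 and 0.958 to 0.973 in the others. Its kidney epithelial sum of 51740 was the lowest of all libraries, and its 6 leukocyte miRNAs summed to 23150 CPM, while the other DN libraries held 1345 to 1906 CPM. Values without DN 2, DN 3 or control 2 stand beside many of the results that moved when they were left out, but not beside all.

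miR-22-3p was an abundant kidney miRNA. Its raw counts ranged from 32293 to 77230 per library, which was 0.694% to 1.6% of the named counts. By mean level over all libraries it stood at place 23 of 532 distinct profiles, and in single libraries between place 16 and place 30. The entries tested included both arms, since neither was removed by the filter on low counts.

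In control kidneys, miR-22-3p was at 10480 CPM in the lowest library, 12010 at the median and 13800 in the highest. In DN kidneys it was at 5798, 9513 and 11770 CPM. In treated kidneys it was at 10140, 11250 and 16030 CPM. The means were 12230 ± 1311 in control, 9325 ± 2206 in DN and 11920 ± 2129 CPM in treated libraries (SD, n = 6 each), so control was highest and DN lowest. DN 2 was the lowest library of all 18 and treated 2 the highest. Without DN 2 the DN mean was 10030 ± 1534 CPM, and without treated 2 the treated mean was 11100 ± 782 CPM (SD, n = 5 each). The groups overlapped: 3 DN libraries lay below every control library, and 4 control libraries lay above every DN library.

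miR-22-5p, the arm usually discarded, was far less abundant, with 871 to 2009 raw counts per library. It stood at place 133 by mean level. In control kidneys it was at 141 CPM in the lowest library, 386 at the median and 431 in the highest. In DN kidneys it was at 219, 276 and 347 CPM. In treated kidneys it was at 273, 317 and 387 CPM. The means were 347 ± 112 in control, 282 ± 50.6 in DN and 321 ± 42.2 CPM in treated libraries (SD, n = 6 each), the same order as for the other arm. Control 2, at 141 CPM, was the lowest of all 18 libraries, and the next control library was at 307 CPM.

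**Figure D1:**
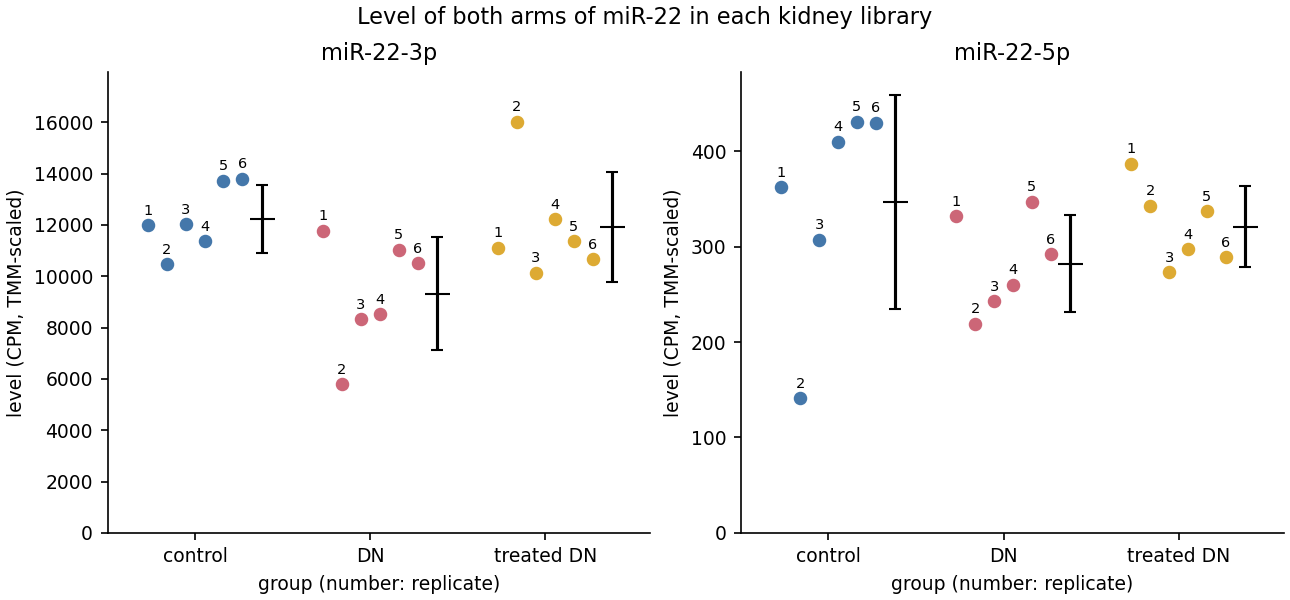
Level in CPM (TMM-scaled) of miR-22-3p (left) and miR-22-5p (right) in each library, by group; numbers are replicates and black bars the mean ± SD of 6 libraries. DN 2 is lowest for miR-22-3p at 5798 CPM, treated 2 is highest at 16030 CPM, and control 2 is lowest for miR-22-5p at 141 CPM.

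Within groups, the SD of log2 CPM was 0.271 for miR-22-3p, smaller than in all but 37 of the 619 tested entries, whose median was 0.583. Abundant entries also vary less: among the 92 entries with a mean of at least 1000 CPM, the median SD was 0.396 and 16 had a smaller one than miR-22-3p. For miR-22-5p the SD was 0.403, and 149 of the 619 entries (24.1%) had a smaller one. Its coefficient of variation was 32.2% in control, 17.9% in DN and 13.2% in treated libraries. The high value in control rested on control 2, without which it was 13.7%.

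DN against control asks how the kidneys of DN and control mice differ. The mean of miR-22-3p was lower in DN, with a log2 fold change (log2FC) of −0.39 (SE 0.163, 95% interval −0.73 to −0.0505), or 0.762-fold. All 6 DN libraries lay below the control median. The difference did not pass the threshold of 0.05 (edgeR quasi-likelihood test, Benjamini-Hochberg adjusted p = 0.529 over 619 entries). Its unadjusted edgeR p was under 0.05, as for 15 lower entries (2.42%) and 47 entries in either direction (7.59%). The same 6 DN libraries entered treated against DN, by which miR-22-3p was chosen. This p, the interval and the log2FC are therefore not free of that choice. Without DN 2 the log2FC was −0.27, and without control 2, DN 2 and DN 3 together it was −0.29. Leaving out any treated library, none of which is in this contrast, moved it to between −0.336 and −0.332.

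miR-22-5p was lower in DN by a similar amount, with a log2FC of −0.30 (SE 0.224, 95% interval −0.77 to 0.17, edgeR adjusted p = 0.787). All 6 DN libraries lay below the control median here too. Its log2FC was −0.39 without control 2 and −0.13 without control 5. Leaving out any treated library, none of which is in this contrast, also moved it, to between −0.229 and −0.226. Such shifts therefore need not come only from the library left out. Neither arm was called, 0 of 2, beside 0 of 619 entries (0%), and neither was separated between the groups, beside 0% of all entries. After adjustment DESeq2 called 4 entries and limma-voom, run here and below with sample weights, called 91. The median log2FC of all entries was 0.0752, and 65 entries had a more negative value than miR-22-3p. This place is not free of the choice by treated against DN either.

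Treated against control asks which miRNAs still set DN kidneys apart from control kidneys under germacrone. Here miR-22-3p had a log2FC of −0.037 (SE 0.163, 95% interval −0.38 to 0.30, edgeR adjusted p = 0.910). It was −0.24 when counts were scaled by library size only, and −0.11 without control 2, DN 2 and DN 3. The lower end of the interval lies close to the −0.39 of DN against control. Of the treated libraries, 2 lay above the control median and 4 below it. miR-22-5p had a log2FC of −0.11 (SE 0.224, 95% interval −0.58 to 0.36, edgeR adjusted p = 0.784), with 1 treated library above the control median and 5 below. Its log2FC was −0.305 with library size only and −0.30 without the 3 libraries. Again 0 of 2 arms were called, beside 0 of 619 entries (0%). Neither arm was separated between the groups, beside 5.17% of all entries (3.55% higher and 1.62% lower). At an unadjusted p under 0.05 edgeR had 121 entries (19.5%), of which 66 were higher (10.7%) and 55 lower (8.89%), and neither arm was among them. After adjustment DESeq2 called 18 and limma-voom 106.

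Treated against DN asks which miRNAs differ with germacrone. This is the contrast that brought miR-22-3p forward, so its values describe and do not test. miR-22-3p was at a log2FC of 0.35 (SE 0.163), or 1.28-fold, and all 6 treated libraries lay above the DN median. The groups overlapped, with 2 treated libraries above every DN library and 3 DN libraries below every treated library. The log2FC was 0.22 without DN 2, 0.23 without treated 2 and 0.18 without control 2, DN 2 and DN 3 together. miR-22-5p was at a log2FC of 0.19 (SE 0.224), or 1.14-fold, with 5 of 6 treated libraries above the DN median. Its log2FC was 0.096 without DN 2, and without the 3 libraries it was 0.056. The median log2FC of all entries in this contrast was −0.0542. No entry was called (0%) or separated (0%) there, with 23 entries (3.72%) at an unadjusted p under 0.05 by edgeR, 5 of them higher (0.808%), and 0 calls by DESeq2 and limma-voom. The 3 contrasts share libraries pairwise, so the opposite signs against control and against DN both rest in part on the same 6 DN libraries.

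**Figure D2:**
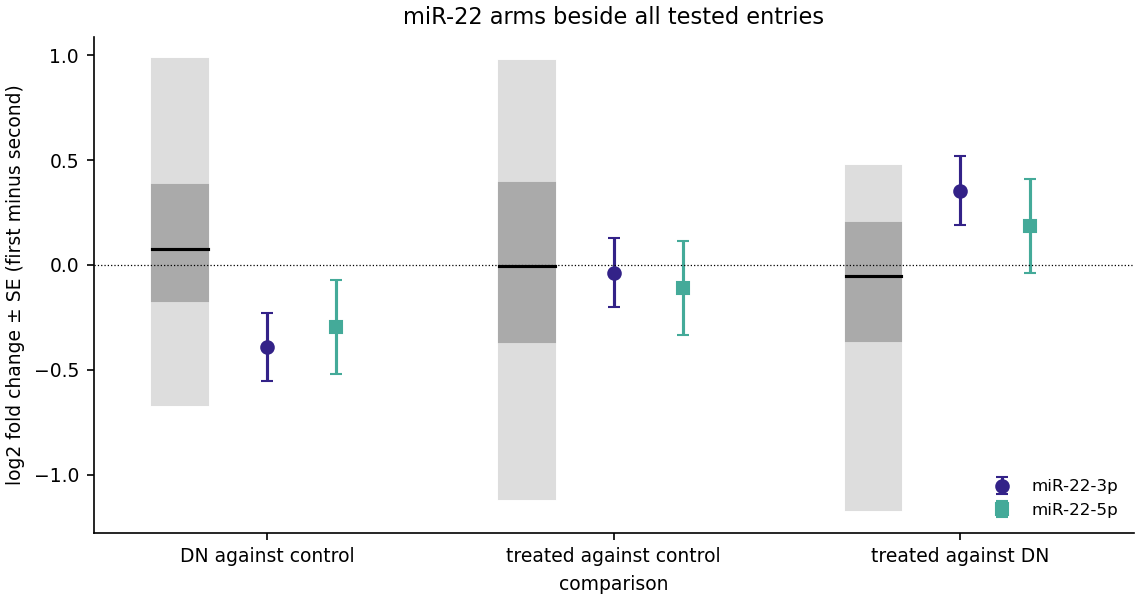
Log2 fold change ± SE of miR-22-3p (circles) and miR-22-5p (squares) in each comparison; grey bars span the 5th to 95th percentile of all 619 tested entries, dark grey the middle part from the lower to the upper quartile, with the median as a black line. In DN against control miR-22-3p, at −0.39, lies below the lower quartile of all entries, −0.171, and in treated against DN, at 0.35, above the upper quartile, 0.199. miR-22-3p was chosen by treated against DN, so neither place is free of that choice.

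The ratio of the arms does not depend on how libraries are scaled, since both are counted in the same library. miR-22-5p made up 1.32% to 3.64% of the counts of both arms, or 1 read for every 26.5 to 74.5 reads of miR-22-3p. In control 2 the share was 1.32% (95% Wilson interval 1.25% to 1.41%, counting error only). The other control libraries were at 2.49% to 3.48%. In DN libraries the share was 2.71% at the lowest, 2.9% at the median and 3.64% at the highest. In treated libraries it was 2.09%, 2.63% and 3.36%. The group means were 2.71% ± 0.752 in control, 2.99% ± 0.345 in DN and 2.66% ± 0.436 in treated libraries (SD, n = 6 each), and the groups overlapped.

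The log2 ratio of miR-22-5p to miR-22-3p was −5.03 ± 0.162 in DN and −5.23 ± 0.512 in control libraries (SD, n = 6 each), a difference of 0.20 (2-sided exact permutation test, p = 0.506, adjusted p = 0.952 over 2 tests). Without control 2 this difference was −0.002. In treated libraries the ratio was −5.21 ± 0.240, which differed from control by 0.017 (2-sided exact permutation test, p = 0.952, adjusted p = 0.952), and by −0.18 without control 2. Treated libraries were −0.18 from DN, given as a description.

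Across 84 other mouse hairpins with at least 10 CPM for each arm, the minor arm made up a median of 7.95% of the pair, and in 29 it was a smaller share than the 2.79% of miR-22. Most other hairpins did not share the low ratio of control 2. For miR-22 the log2 ratio in control 2 differed from the median of the other controls by −1.22. The same difference had a median of 0.328 over the other hairpins. Among them 33 of 84 lay below, 10 of these by more than miR-22. In 13 of the 84 the lowest ratio of any library was that of control 2, as it was for miR-22.

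**Figure D3:**
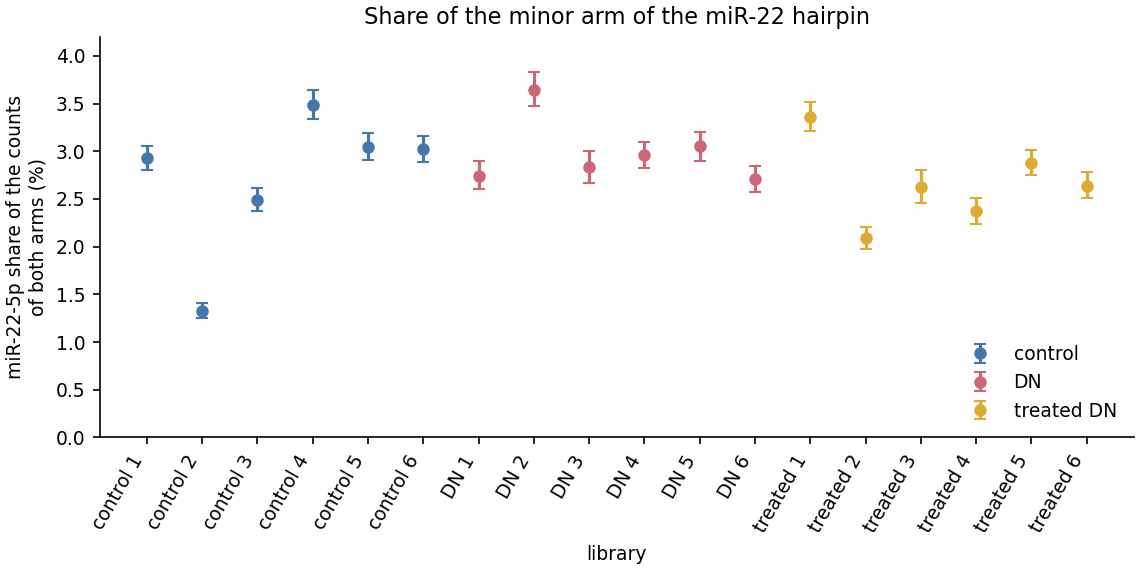
Share of miR-22-5p in the counts of both arms (percent) for each library, with 95% Wilson intervals that cover counting error only. Control 2 is lowest at 1.32% and DN 2 highest at 3.64%.

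The arms varied together across libraries. Over all 18 libraries the log2 CPM of miR-22-3p and miR-22-5p had a Pearson r of 0.583 (permutation p = 0.019, adjusted p = 0.0389 over 4 sets) and a Spearman rho of 0.765 (permutation p = 0.00034, adjusted p = 0.00136). Without DN 2 and treated 2, the 2 libraries farthest from the median of miR-22-3p, r was 0.598 and rho 0.776. Leaving out control 2 gave r = 0.786. The permutations over 18 libraries ignored group, so differences between groups enter these p-values. On deviations from the group means r was 0.553. Both arms were scaled by the same library factor, which the points therefore share.

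Within DN libraries r was 0.933 (exact permutation p = 0.0042, adjusted p = 0.0167) and rho 0.943 (exact permutation p = 0.017, adjusted p = 0.0333, n = 6). Without DN 2 these were 0.945 and 0.900 over 5 libraries. Within control libraries r was 0.769 (exact permutation p = 0.039, adjusted p = 0.0519) and rho 0.714 (exact permutation p = 0.14, adjusted p = 0.181), but r was 0.529 and rho 0.5 over the 5 libraries without control 2. Within treated libraries r was 0.372 (exact permutation p = 0.51, adjusted p = 0.508) and rho 0.600 (exact permutation p = 0.24, adjusted p = 0.242). Whether these coefficients differ between groups was not tested.

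**Figure D4:**
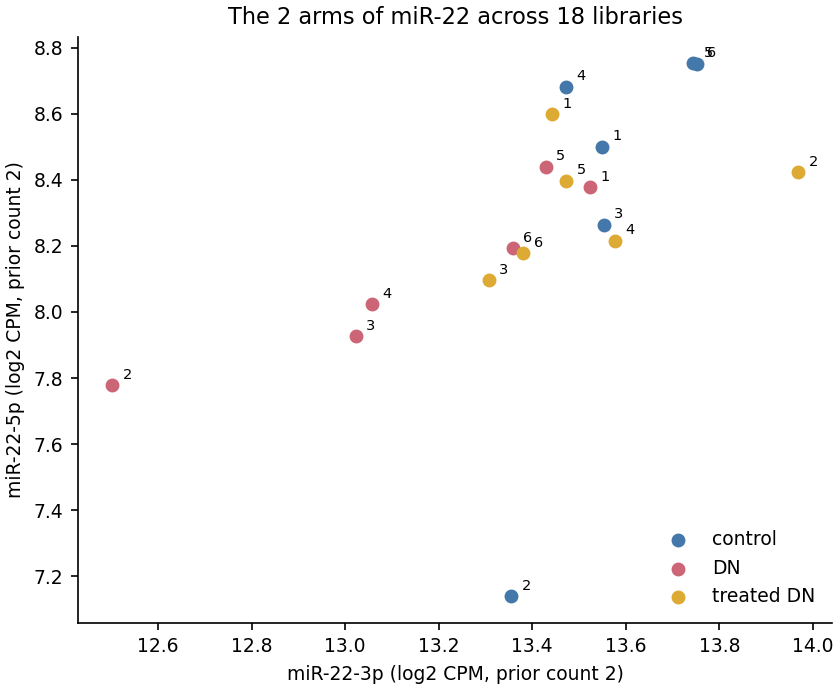
Log2 CPM (prior count 2) of miR-22-5p against miR-22-3p in 18 libraries, coloured by group, with replicate numbers. DN libraries lie along a line with r = 0.933, control 2 lies far below the other libraries, and treated 2 lies to the right.

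Of 326 other mouse entries with a mean of at least 10 CPM, the 5 whose log2 CPM followed miR-22-3p most closely over 18 libraries were miR-29c-3p, miR-29c-5p, miR-200a-5p, let-7f-1-3p and miR-194-5p. miR-29c-3p, of a family that restrains matrix genes, had a Pearson r of 0.778, and its other arm miR-29c-5p had 0.770. The r of miR-200a-5p, from an epithelial cluster, was 0.763, that of let-7f-1-3p 0.758 and that of miR-194-5p, enriched in kidney and gut epithelium, 0.740. The median over all 326 was 0.023. These values describe the libraries and carry no test.

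Much of this likeness lay in the libraries that stood apart. Without control 2, DN 2 and DN 3, r was 0.715 for miR-29c-5p, which then stood at place 3 of the 326, and 0.465 for miR-29c-3p. It was 0.295 for miR-200a-5p, 0.217 for let-7f-1-3p and 0.042 for miR-194-5p. At the other end were let-7i-5p with r = −0.795, the macrophage-induced miR-147-3p with −0.785 and let-7j with −0.778. Over the 15 remaining libraries these were −0.444, −0.577 and −0.375. miR-147-3p was scarce outside DN 2: it was at 149 CPM there, at most 6 CPM in any other library and at 0 counts in 6 libraries. miR-29c-5p was at 101 ± 10.1 CPM in control, 74.5 ± 26.9 in DN and 76.0 ± 7.21 in treated libraries (SD, n = 6 each). Its log2FC in treated against DN was 0.03. Neither of its contrasts with control passed (edgeR adjusted p = 0.618 for DN and 0.326 for treated).

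For miR-22-5p the closest were miR-218-5p of the Slit introns with r = 0.834 and miR-26b-5p of a Ctdsp1 intron with 0.827. Next came miR-29a-5p with 0.815, miR-190a-5p with 0.779 and the endothelial miR-126a-5p, from an Egfl7 intron, with 0.779. Without the 3 libraries r was 0.579, 0.32, 0.62, 0.268 and 0.173 in that order. The lists of the 2 arms had no miRNA in common among these 10 places.

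**Figure D5:**
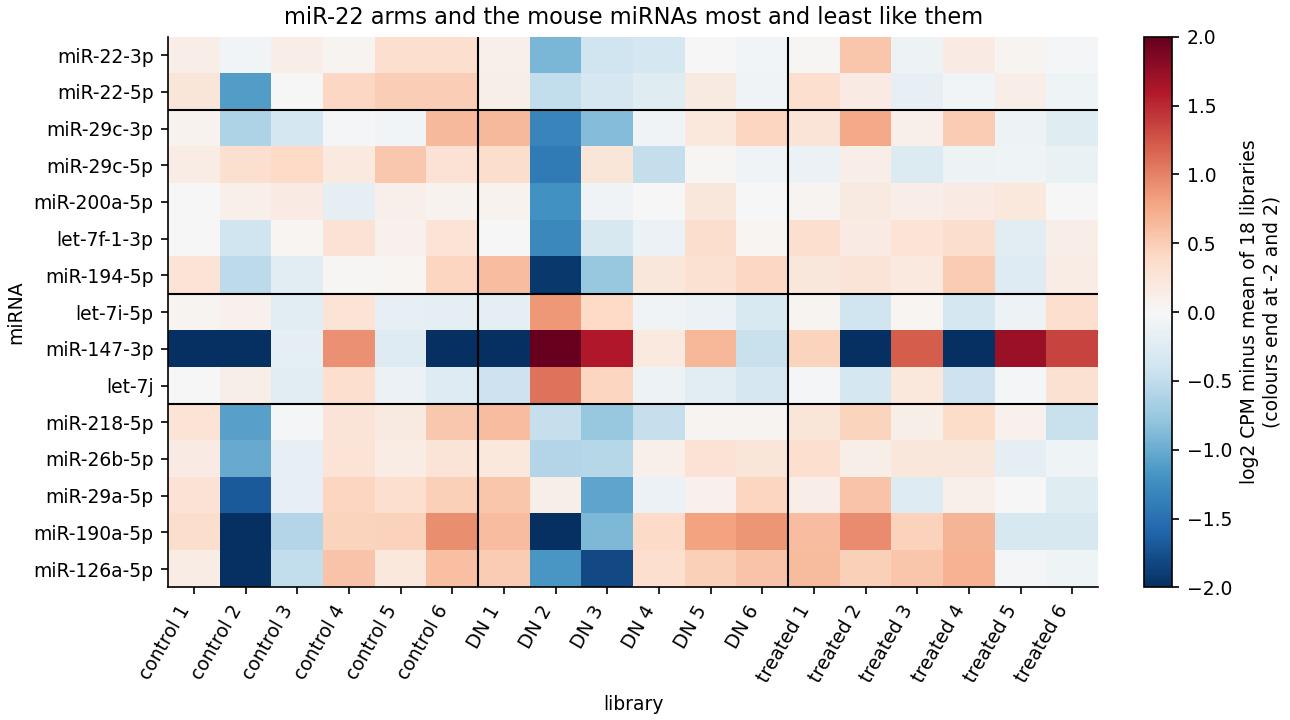
Log2 CPM minus the mean of 18 libraries (colour, ending at −2 and 2) for both arms of miR-22 (top), the 5 mouse miRNAs most like miR-22-3p, the 3 least like it, and the 5 most like miR-22-5p (bottom). DN 2 is low in the rows like miR-22-3p. In the rows like miR-22-5p control 2 and DN 3 are low, and so is DN 2 except for miR-29a-5p.

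On the same chromosome, Mir132 and Mir212, whose miRNAs are induced by CREB in neurons, lie 290 kb before Mir22. In DN against control all 4 of their arms were higher, with a median log2FC of 0.587, and 0 passed. Of all 619 entries 56.5% were higher in that comparison (median 0.075), 49.8% in treated against control (median −0.004) and 42.2% in treated against DN (median −0.054). miR-132-3p had means of 156 ± 118 CPM in DN, 129 ± 13.7 in control and 116 ± 34.9 in treated libraries (SD, n = 6 each). miR-212-3p was at 22.3 ± 20.8, 14.8 ± 5.62 and 12.1 ± 6.99 CPM in that order. Both were highest in DN 2, at 389 and 61.3 CPM, the library in which miR-22-3p was lowest. In treated against control 2 of 4 arms were higher (median 0.046) and 0 passed, and in treated against DN 0 of 4 were higher (median −0.382). Both counts that involve DN rested on DN 2. Without it 2 of 4 arms were higher in DN against control (median −0.002) and 3 of 4 in treated against DN (median 0.101). Without control 2 and DN 3 as well, 0 of 4 were higher in DN against control (median −0.266). In treated against DN 4 of 4 were then higher (median 0.32). Of all entries, without DN 2, 52.5% were higher in DN against control, 49.4% in treated against control and 45.6% in treated against DN. Without control 2, DN 2 and DN 3 these shares were 48.1%, 47.0% and 51.4%. They apply to the cell type lists below as well.

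Other cell types could contribute to whole kidney libraries, in which fewer cells of a type and less RNA per cell cannot be told apart. The summed leukocyte miRNAs ranged from 2789 to 3708 CPM in control libraries, from 1345 to 23150 CPM in DN libraries and from 1472 to 8492 CPM in treated libraries. All 6 were higher in DN than in control (median log2FC 0.954, 0 passed) and 0 of 6 higher in treated than in DN (median −1.612). These counts turned around without DN 2, when 0 of 6 were higher in DN than in control (median −0.677) and 4 of 6 higher in treated than in DN (median 0.33). In treated against control 2 of 6 were higher (median −0.239), with DN 2 or without it. The lymphocyte miR-150-5p passed against control in both comparisons once DN 2 was left out. The myeloid miR-223-3p reached 5099 CPM in DN 2, against a DN median of 85.7. DN 2 thus joined the highest leukocyte sum with the lowest miR-22-3p, and treated 6, second in leukocyte sum, was at 10660 CPM of miR-22-3p. Without DN 2 the log2FC of miR-22-3p went from −0.39 to −0.27 in DN against control and from 0.35 to 0.22 in treated against DN. Leaving out a library outside the contrast also moved these values. In DN against control it was −0.336 to −0.332 without 1 treated library. In treated against DN it was 0.32 to 0.357 without 1 control library. The part of leukocyte miRNAs in the miR-22 values was not tested.

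Heart and striated muscle, where miR-22-3p is abundant, left little signal. The 7 miRNAs listed for it, of which 3 passed the filter, had sums from 80.8 to 308 CPM in control libraries, from 43.8 to 120 CPM in DN libraries and from 57.0 to 133 CPM in treated libraries. In DN against control 1 of 3 was higher (median −0.498), in treated against control 1 of 3 (median −0.290) and in treated against DN 2 of 3 (median 0.208). Without DN 2 these medians were −0.294, −0.272 and 0.022. Without control 2, DN 2 and DN 3 they were −0.269, −0.443 and −0.099, with 1 of 3 higher in each comparison. miR-133a-3p, which defines muscle, was at 35.7 ± 17.1, 18.2 ± 6.96 and 17.2 ± 3.82 CPM in control, DN and treated libraries (SD, n = 6 each).

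Kidney epithelial miRNAs had 6 of 8 higher in DN than in control (median log2FC 0.154), 8 of 8 higher in treated than in control (0.524) and 7 of 8 higher in treated than in DN (0.277). miR-30a-5p of tubules and podocytes and miR-192-5p of tubules were lowest in DN 2, at 19480 and 3880 CPM. Without DN 2 all 8 were higher in DN than in control (median 0.32), and 5 of 8 in treated than in DN (median 0.094). Endothelial miR-126a arms summed to 8007 to 25980 CPM over all libraries, with 1 of 2, 2 of 2 and 2 of 2 higher in the same order of comparisons (medians −0.105, 0.254 and 0.360). In treated against DN the endothelial median was 0.201 without DN 2, and 0.004 with 1 of 2 higher without control 2, DN 2 and DN 3. Smooth muscle and pericyte miRNAs summed to 24410 to 63220 CPM, with 3, 5 and 4 of 7 higher (medians −0.007, 0.155 and 0.043). In treated against DN, 6 of 7 were higher without DN 2 (median 0.183) and 7 of 7 without the 3 libraries (median 0.184). Red blood cell miRNAs, among them miR-451a, summed to 1272 to 5364 CPM, with 2, 3 and 3 of 4 higher (medians 0.195, 0.431 and 0.125). Without DN 2, 3 of 4 were higher in DN against control (median 0.429) and 2 of 4 in treated against DN (median −0.102). Without the 3 libraries 2, 2 and 1 of 4 were higher in the same order of comparisons (medians 0.291, 0.241 and −0.165). Liver miR-122-5p was at 5.58 to 118 CPM, with a log2FC of 1.26 in DN against control, −0.24 in treated against control and −1.50 in treated against DN. Its log2FC was 0.969, −0.254 and −1.223 in that order without DN 2. None of the marker miRNAs tested passed the threshold in any comparison over all 18 libraries. Without DN 2, miR-204-5p of kidney epithelium passed in both comparisons against control, miR-10b-5p in treated against control and miR-150-5p in both. In those fits 6 of 630 entries (0.952%) passed in DN against control and 7 of 630 (1.11%) in treated against control. Leaving out control 2 and DN 3 as well added miR-192-5p, miR-10b-5p, miR-155-5p and the pericyte miR-214-3p in DN against control, and miR-30a-5p and miR-133a-3p in treated against control. There 51 of 636 entries (8.02%) passed in DN against control and 50 of 636 (7.86%) in treated against control. The miR-22 arms passed in neither case.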

How the data were processed

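Per the labels' protocols, kidney RNA was extracted with Trizol, made into TruSeq Small RNA libraries and sequenced on an Illumina HiSeq, and reads were filtered with ACGT101-miR. The submitters' processing notes name Trimmomatic 0.32, BWA, SAMtools and edgeR. Neither the genome build nor the miRBase release is named in the labels. The deposited table holds estimated counts (76.9% of values above 0 were whole) and a normalized signal, which is the count times 1 factor per library (0.6644 to 1.427). Unnamed entries (350, at most 0.148% of a library) were left out. Counts were rounded, filtered by filterByExpr (minimum count 10, total 15), which kept 619 entries, and scaled by TMM. All 18 libraries were fitted by group with edgeR 4.0.16 (legacy quasi-likelihood, R 4.3.3), at an adjusted p under 0.05. The fit was tested on simulated data in which 200 entries were changed 4-fold in treated libraries. Of those still tested, 86.5% were recovered in treated against control. Changes as small as those of the miR-22 arms were not simulated. CPM are TMM-scaled, with a prior count of 2 for log2 values. Ranks count identical profiles once.

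Alternatives used RLE, library size, the authors' factors, other filters, DESeq2 1.42.0, limma-voom 3.58.1 with sample weights and the edgeR 4 method. Others were a replicate block, the 2 groups alone, summed names and libraries left out. The authors' factors, list counts without DN 2 or without control 2, DN 2 and DN 3, and spreads and correlations within groups without one library, were added after seeing the data. Members, lists and tests were chosen with earlier results of these data known. Besides the 2 arms, miRNAs were named if their log2 CPM was most like an arm (5 highest, and for miR-22-3p the 3 lowest), or as preset examples of the lists. miR-29c-5p was given in detail after its values were seen. The lists were Mir132 and Mir212, and markers of kidney epithelium, leukocytes, red blood cells, heart and striated muscle, liver, endothelium, and smooth muscle with pericytes. A further list is not reported here.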

Additional observations from a re-analysis of the deposited data

Results flagged for a closer look

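By Dixon's test at the 95% level, 4 of the 18 groups examined (6 measures in 3 groups) had a library far from the others. Chance flags about 1 in 20, but the measures are not independent, because the shares use the same counts as the levels. The 4 flags can therefore not be read against that rate. miR-22-3p in treated 2, at 16030 CPM, lay far above the other treated libraries, the next of which was at 12220 CPM. The miR-22-5p share of both arms in DN 2, at 3.64%, lay far above the other DN libraries, the highest of which was at 3.05%. An entry that carries the opossum name mdo-miR-22-3p was at 27 CPM in control 2, far below the other control libraries. The 2 entries of that name together made up 0.279% of all miR-22-3p entries in control 2 (95% Wilson interval 0.244% to 0.319%, counting error only), against 1.07% to 1.36% in the other control libraries. Their share was also low in DN 3, at 0.4%. Both flags of control 2 draw on the counts of these entries. The table does not give the sequences behind these 2 entries.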

How the results depend on the processing

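Over 12 alternatives, the log2FC of miR-22-3p in DN against control stayed between −0.48 (library size only) and −0.29 (edgeR, DESeq2 or limma adjusted p 0.0788 to 0.914), and that of miR-22-5p between −0.37 and −0.24. With one library left out the ranges were −0.397 to −0.270 and −0.387 to −0.127. In treated against control they were −0.104 to 0.045 for miR-22-3p, turning from negative without control 3, 5 or 6 or treated 3 or 6, and −0.226 to 0.029 for miR-22-5p, positive without control 5. Over the 12 alternatives they were −0.237 (library size only) to −0.021 for miR-22-3p and −0.305 (library size only) to −0.051 for miR-22-5p, with none past the threshold. In treated against DN, with one library left out, they were 0.223 to 0.387 and 0.087 to 0.237. The cause of these shifts was not tested. Library size only moved the median of all entries to −0.203 in treated against control and −0.194 in treated against DN, and lowered the share of higher entries from 49.8% to 36.8% and from 42.2% to 32%.

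The log2 arm ratio, with one library left out, differed by −0.002 to 0.284 in DN against control, −0.182 to 0.103 in treated against control and −0.253 to −0.112 in treated against DN. Without control 2, DN 2 and DN 3 it was −0.059 in DN against control and −0.182 in treated against control. The correlation of the arms ranged from 0.544 to 0.786 with one library left out.

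Calls in DN against control numbered 2 with the stricter filter, 4 with DESeq2, 91 with limma-voom, 6 with the edgeR 4 method, 51 without the 3 libraries, and 0 to 6 with one left out (1 without control 2, 6 without DN 2, 6 without DN 3). In treated against control they numbered 18, 106, 3 and 50 with DESeq2, limma-voom, the edgeR 4 method and without the 3 libraries, 56 with the 2 groups alone, and 0 to 7 with one left out (7 without DN 2, 3 without DN 3). In treated against DN every alternative gave 0.

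Replicate numbers are shared by the groups, but deviations of same-numbered libraries correlated at −0.329 to 0.262, and only 1 of 12 libraries matched its own number best in DN against control and 0 of 12 in the other comparisons. With the replicate block, 0 entries were called in each comparison and miR-22-3p stood at −0.40, −0.025 and 0.38.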
